A study of Schmidtea mediterranea with 48 samples.

Results

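Whole planarians fed double-stranded RNA against sox8 were compared with planarians fed unc22 double-stranded RNA, both sampled on day 12, by sequencing polyadenylated RNA. The comparison takes 8 of the 48 libraries of the series, 4 with sox8 RNAi and 4 with unc22 RNAi, and tests 22667 of the 28413 features of the table. A feature is a transcript model known here by its SMED30 identifier, and it was tested where its mean over all 48 libraries was at least 0.5 RPKM (a read count divided by feature length and library depth). All worms came from the CIW4 clonal line of Schmidtea mediterranea and carried no genetic change. The silencing RNA came from HT115 bacteria mixed into liver paste, given in 3 meals to sox8 and unc22 worms alike. unc22, a nematode muscle gene, was the non-targeting control. The other RNAi groups of the series were zfp1 and pax5, and all 4 RNAi treatments were sampled on days 6, 12 and 18 with 4 libraries each. The labels do not say whether a library holds 1 worm or several, so p-values measure the spread between libraries, which may be technical. The table carries identifiers without gene names. The level of sox8 itself, and the markers of the labelled tissue, were therefore not analysed here, and no feature below is given a gene name or a function.

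Sox proteins are transcription factors that bind DNA through an HMG box, and in vertebrates Sox8 belongs to the SoxE group with Sox9 and Sox10, which act in neural crest, gonad and cartilage. Planarians renew all tissues throughout adult life from stem cells called neoblasts, which divide and give rise to post-mitotic progenitors of each tissue. zfp1 is a zinc finger gene that neoblasts need to make the epidermal lineage, and Pax proteins are transcription factors with a paired-box DNA-binding domain.

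The response to sox8 RNAi on day 12 was narrow, lopsided and, for a small set of features, deep. Of 22667 features, 65 passed the test (0.287%; limma, Benjamini-Hochberg adjusted p under 0.05), 55 of them lower (0.243%) and 10 higher (0.0441%) in sox8 worms. The count of 65 was 43 without unc22 replicate 2, 38 with all libraries thinned to equal depth and 137 when the model held the 8 libraries alone. On the scale of log2(RPKM + 0.5), the fall was at least 2-fold in 22 features (0.0971%) and the rise in 1 (0.00441%). Worms with fewer cells of a type and cells with less RNA cannot be told apart in whole-animal RNA. In 64 of the 65 features the libraries of both groups did not overlap. Over all tested features, 3% had every sox8 library below every unc22 library and 3.65% had the reverse. The 65 were called with these same 8 libraries, so the lack of overlap describes them and tests nothing. The median change over all tested features was 0.00 on the scale of log2(RPKM + 0.5), on which all changes below are given, with limma's standard error (SE). The scale understates the change of features near 0.5 RPKM or below.

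**Figure D1:**
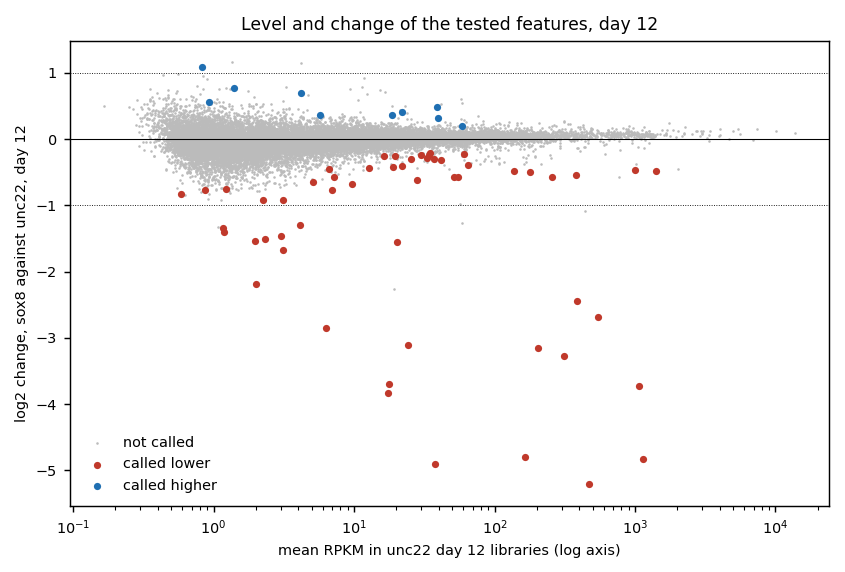
Each point is 1 of the 22667 tested features, with its mean RPKM in the 4 unc22 day 12 libraries on a log axis and its log2 change in sox8 against unc22 libraries. Red points are the 55 features called lower, blue points the 10 called higher, and dotted lines mark 2-fold changes; the deepest falls reach below -4 at unc22 levels from 38.0 to 1141 RPKM.

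The 8 libraries of day 12 were alike in depth and in spread. Reads per library, recovered from the steps of the RPKM values, ran from 16143856 to 24297681 in the sox8 group and from 19136883 to 22122920 in the unc22 group. Replicates correlated at r = 0.991 to 0.993 across features, and no library stood apart in its median absolute deviation from its group mean (0.0634 to 0.0706 on the log2 scale). Chi-square per degree of freedom between replicates was 1.97 to 3.15, so no 2 libraries were copies of each other.

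The 4 deepest falls on the log2(RPKM + 0.5) scale left between 2.11% and 3.49% of the control level. SMED30016772, with 4 reads in all over the sox8 libraries, left 2.60%. SMED30025741 stood at 495, 461, 494 and 444 RPKM in the unc22 libraries and at 10.1, 12.0, 13.9 and 13.4 RPKM in the sox8 libraries. Every sox8 library was thus far below every control, with a change of -5.21 (SE 0.27, limma adjusted p = 2.37e-17). SMED30002134, the most abundant of the 22 features, measured 1189, 1132, 1171 and 1070.4 RPKM in controls against 33.4, 43.3, 44.3 and 38.4 RPKM after sox8 RNAi. Its change was -4.83 (SE 0.25, adjusted p = 2.37e-17), so a transcript above 1000 RPKM in every control dropped below 50 in every sox8 library. SMED30031990 went from 181, 158, 169 and 156 RPKM to 4.58, 5.50, 6.98 and 5.13 RPKM, a change of -4.80 (SE 0.25). SMED30008921 was less abundant, at 38.5, 39.1, 36.3 and 38.1 RPKM in controls and 0.582, 0.863, 1.19 and 0.575 RPKM in sox8 libraries. The latter values rest on 6 to 10 reads per library, and its change was -4.91 (SE 0.30, adjusted p = 3.46e-16).

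By control level, 5 more of the 22 exceeded 100 RPKM. SMED30014876 read 1125, 1088, 1087 and 994 RPKM in unc22 and 67.5, 83.2, 91.3 and 82.8 RPKM in sox8 libraries, which left 7.57% of its control level (change -3.72, SE 0.23, adjusted p = 3.27e-15). SMED30035904 kept 10.2%, falling from 315 ± 15.9 to 32.1 ± 3.90 RPKM (SD, n = 4). SMED30009302 kept 11.1%, from 202 ± 16.3 to 22.4 ± 1.86 RPKM (SD, n = 4). These 3 features show the same picture as the deepest ones: no sox8 library came near a control. SMED30011419 and SMED30020396 also belonged to the abundant transcripts but kept more, 15.5% and 18.3%. SMED30020396 measured 395, 365, 402 and 374 RPKM in controls and 65.6, 73.7, 71.3 and 71.2 RPKM in sox8 libraries, so the level in sox8 worms varied little (SD 3.42 RPKM, n = 4). SMED30008505, at 24.3 ± 1.62 RPKM in controls, kept 9.96% (2.42 ± 0.538 RPKM, SD, n = 4).

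The remaining 12 falls of at least 2-fold concerned features at 1.17 to 20.1 RPKM in controls. SMED30026114 measured 19.7, 16.97, 15.8 and 17.4 RPKM in controls and 0.669, 0.850, 1.29 and 0.404 RPKM in sox8 libraries (change -3.83, SE 0.25). SMED30024144 went from 17.6 ± 0.997 to 0.984 ± 0.585 RPKM and SMED30031649 from 6.30 ± 0.706 to 0.452 ± 0.153 RPKM (SD, n = 4). Both rest on few reads in sox8 worms, 35 and 17 over the 4 libraries. SMED30016772 had 36, 32, 37 and 44 reads in the control libraries and 3, 0, 0 and 1 reads in the sox8 libraries. In RPKM this is 2.00 ± 0.336 against 0.0519 ± 0.0765 (SD, n = 4), the latter under the 0.179 RPKM that 3 reads give at its length, with a change of -2.18 (SE 0.14, adjusted p = 7.78e-16). SMED30002242 and SMED30026763 kept the most, 32.6% and 35.0% (changes -1.55 and -1.29). SMED30031267, SMED30028321, SMED30000989, SMED30029498 and SMED30035240 fell by 1.41 to 1.67 on the log2 scale, from control means of 1.19 to 3.14 RPKM. The calls of SMED30033320 and SMED30029498 were not secure. SMED30029498 was not called at equal depth (limma adjusted p = 0.0564). SMED30033320 was not called at equal depth (0.106), with a pseudocount of 2 (0.112) or with the 8 libraries alone in the model (0.0574). The controls of SMED30033320 had 16, 6, 10 and 10 reads and its sox8 libraries 4, 0, 0 and 2, with adjusted p = 0.0275, and the call was lost in 6 of 8 cases when 1 library was left out.

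**Figure D2:**
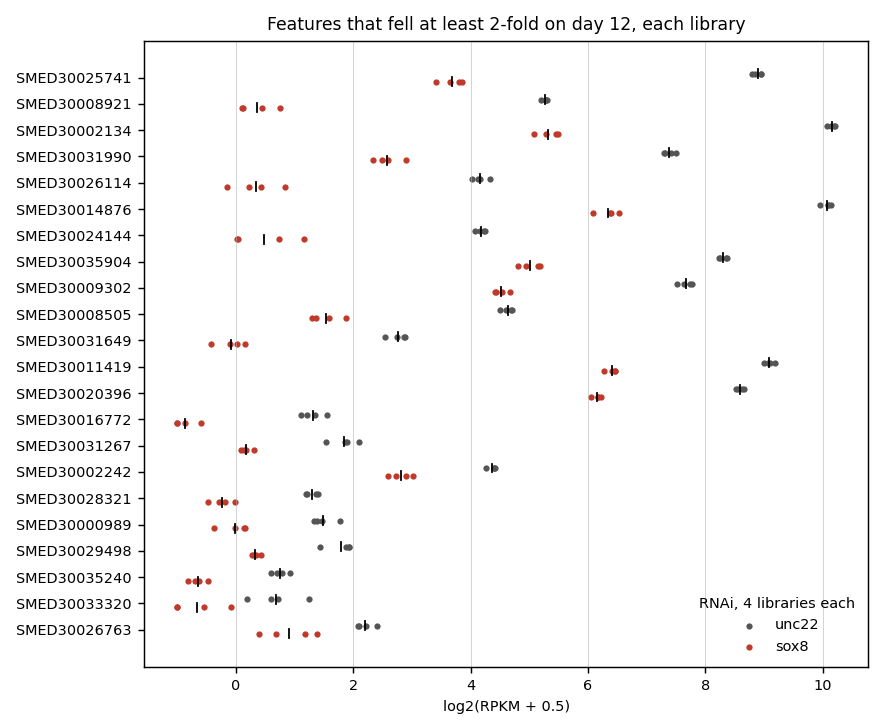
Values of the 22 features that fell at least 2-fold, as log2(RPKM + 0.5), in the 4 unc22 (grey) and 4 sox8 (red) libraries of day 12; vertical ticks are group means. The groups are separate in all 22 features, with the widest gap in SMED30025741 and the narrowest in SMED30033320.

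Together the 22 features made up 0.590%, 0.557%, 0.581% and 0.543% of the summed RPKM in the control libraries and 0.0405%, 0.0471%, 0.0491% and 0.0453% in the sox8 libraries. Since the features were chosen by this contrast, these shares describe them and test nothing. The libraries of a group also differed slightly over the whole set. Control replicate 4 held the lowest control value in 10 of the 22 features, and sox8 replicate 1 the lowest sox8 value in 10. In 10 of the 22 features under 10% of the control level was left, and in 19 under 25%.

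On the scale of log2(RPKM + 0.5), a change of at least 2-fold without a call was rare, at 4 features lower and 2 higher. They are named here because of their size. Features at low levels can change 2-fold or more in RPKM without reaching this size, and those were not counted. SMED30005135 had controls at 0.685, 1.41, 0.889 and 1.33 RPKM, against 0.162, 0, 0.199 and 0.137 RPKM in sox8 libraries (-1.32, SE 0.33, adjusted p = 0.0843). Its groups did not overlap, while its changes on days 6 and 18 were 0.09 and 0.16, neither called. The features on the higher side were SMED30004187 (1.17, adjusted p = 0.777) and SMED30029247 (1.15, adjusted p = 0.761). Among the lower ones SMED30001888 came closest, at 30.8, 13.5, 25.9 and 6.75 RPKM in controls and 3.05, 2.23, 6.47 and 1.88 RPKM in sox8 libraries (-2.26, SE 0.54, adjusted p = 0.0526). Its groups did not overlap, but its controls varied more than 4-fold. SMED30027845 (516, 314, 718 and 221 RPKM in controls) and SMED30023781 (83.3, 45.5, 71.0 and 33.4 RPKM) were likewise high in control replicates 1 and 3 and low in replicates 2 and 4. Their changes of -1.08 and -1.27 did not pass the test (adjusted p = 0.531 and 0.461). SMED30001888 had changes of 0.54 on day 6 and -0.41 on day 18, neither called.

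The 33 called falls under 2-fold on the scale of log2(RPKM + 0.5) had changes from -0.92 to -0.21 and a median of -0.47. They kept 19.1% to 86.0% of the control level (median 71.6%), the lowest being SMED30035247, at 0.587 RPKM in controls. In RPKM some fell more than 2-fold: SMED30035247 from 0.587 to 0.112, SMED30003837 from 0.869 to 0.323 and SMED30008947 from 2.24 to 0.962. The split from the 22 larger falls thus depends on the scale for low features. The 6 most abundant kept 67.5% to 72.3%. SMED30030996 measured 1396, 1467, 1447 and 1290.1 RPKM in controls and 1010.4, 935, 1070.0 and 989 RPKM in sox8 libraries (-0.48, SE 0.10, adjusted p = 0.00909). SMED30026394 measured 1001, 1049.5, 1033 and 910.4 RPKM in controls and 727, 681, 764 and 714 RPKM in sox8 libraries (-0.47, SE 0.10, adjusted p = 0.0131). In both the highest sox8 library stayed below the lowest control. SMED30028142 fell from 378 ± 17.5 to 260.1 ± 26.0 RPKM, SMED30018924 from 255 ± 9.89 to 172 ± 7.87 RPKM, SMED30005740 from 178 ± 6.65 to 126 ± 3.98 RPKM, and SMED30027156 from 138 ± 4.07 to 99.1 ± 7.13 RPKM (SD, n = 4). These calls are close to the threshold. SMED30027156 was not called when any 1 of the 8 libraries was left out. SMED30028142 was not called without 4 of them, SMED30026394 without 4, SMED30030996 without 3 and SMED30005740 without 1. At equal depth SMED30028142 and SMED30027156 were not called (limma adjusted p = 0.0637 and 0.151). SMED30005617 was the only called feature whose groups overlapped (32.9 ± 3.61 against 26.7 ± 1.82 RPKM, SD, n = 4).

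Rises were few and small. SMED30019921 had the only rise of at least 2-fold, with 9, 19, 17 and 10 reads in controls and 44, 29, 30 and 37 reads in sox8 libraries. In RPKM it went from 0.831 ± 0.262 to 2.31 ± 0.322 (SD, n = 4; 1.09, SE 0.19, adjusted p = 0.000878). SMED30011585 rose from 1.40 ± 0.437 to 2.70 ± 0.414 RPKM (0.77, adjusted p = 0.00299), SMED30021335 from 4.21 ± 0.277 to 7.23 ± 1.22 RPKM (0.70, adjusted p = 0.000119), and SMED30010551 from 0.922 ± 0.0989 to 1.597 ± 0.1003 RPKM (0.56, adjusted p = 0.0106). SMED30010027 and SMED30028179 rose by 0.41 and 0.36. Their adjusted p of 0.0366 and 0.0153 passed 0.05 with all libraries. Without a single library SMED30010027 was not called in any of 8 cases, SMED30028179 in 4, SMED30010551 in 4 and SMED30011585 in 1. When the model held the 8 libraries alone, SMED30011585, SMED30010551 and SMED30028179 were not called (limma adjusted p = 0.0818, 0.0687 and 0.156). With all libraries thinned to the depth of the shallowest of the series, SMED30019921, SMED30011585, SMED30021335, SMED30010551 and SMED30028179 were not called (adjusted p = 0.729, 0.790, 0.109, 0.633 and 0.355).

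The most precise rise was that of SMED30017339, and it concerned the control as much as the sox8 worms. It measured 38.6, 40.8, 38.8 and 38.0 RPKM in unc22 and 53.2, 54.6, 55.9 and 55.4 RPKM in sox8 libraries of day 12 (0.48, SE 0.03, adjusted p = 8.02e-14). The zfp1 and pax5 libraries of the same day stood at 55.6 ± 0.787 and 54.8 ± 1.40 RPKM (SD, n = 4), next to the sox8 level of 54.8 ± 1.20. Tested directly, sox8 differed from zfp1 by -0.02 (SE 0.03, adjusted p = 0.765) and from pax5 by 0.00 (SE 0.03, adjusted p = 0.999). On day 6 the unc22 mean was 42.2 RPKM against 51.7, 48.7 and 51.8 RPKM in sox8, zfp1 and pax5 worms, and on day 18 it was 37.8 against 56.1, 54.4 and 56.4 RPKM. On each day every unc22 library lay below every library of the other groups. SMED30012044 showed the same order on day 12, at 18.5 ± 0.365 RPKM in unc22, 24.03 ± 0.663 in sox8, 25.8 ± 1.46 in zfp1 and 24.01 ± 1.69 in pax5 libraries (SD, n = 4), and sox8 did not pass the test against zfp1 (adjusted p = 0.251) or pax5 (0.997). Both features are thus higher in sox8 than in unc22 worms and also lowest in the non-targeting control among the 4 RNAi groups. A rise after sox8, zfp1 and pax5 RNAi and a fall after unc22 RNAi cannot be told apart in this design.

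**Figure D3:**
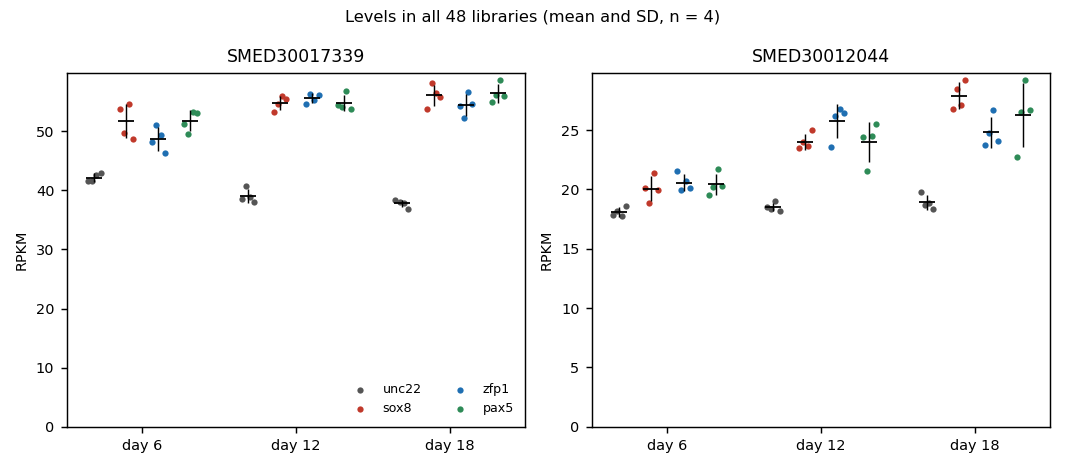
RPKM of SMED30017339 (left) and SMED30012044 (right) in all 48 libraries by day and RNAi, with the mean and SD of each group of 4. The unc22 libraries (grey) are the lowest group on each day, without overlap with any other library of that day for either feature. On day 6, SMED30012044 was called higher than in unc22 in pax5 but not in sox8 or zfp1 libraries.

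Days 6 and 18 have sox8 and unc22 libraries of their own, which the day 12 contrast did not use, and they were used to ask whether the day 12 changes were there earlier and later. Of the 22 falls of at least 2-fold, 21 were called lower on day 6, where 0.397% of all features were, and 21 on day 18, where 0.706% were. The exception on both days was SMED30033320, with changes of -1.04 and -1.09 (adjusted p = 0.0747 and 0.0875). The median change of the 22 was -2.73, -2.76 and -3.0 on days 6, 12 and 18, against 0.02, 0.00 and 0.01 over all tested features. SMED30025741 changed by -4.14, -5.21 and -5.40 on these days, SMED30002134 by -4.09, -4.83 and -5.28, and SMED30031990 by -4.34, -4.80 and -5.34. SMED30035904 stayed at -3.31, -3.28 and -3.35 and SMED30020396 at -2.70, -2.44 and -2.48. The falls of these 5 features were thus already present on day 6.

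The small falls had a different calendar of calls. Of the 33, 7 were called lower on day 6 (0.397% of all features were) and 20 on day 18 (0.706% were). On day 18 and not on day 6, 18 were called, for which no share over all features was computed. The 6 most abundant, SMED30030996, SMED30026394, SMED30028142, SMED30018924, SMED30005740 and SMED30027156, all belonged to these 18. Their day 6 changes lay between -0.37 and -0.10, those of day 12 between -0.57 and -0.47, and those of day 18 between -0.89 and -0.67. A difference in calls between days is not a tested difference, so the sox8 effect of day 12 was compared directly with those of days 6 and 18. By limma 0 of 22667 features passed in either comparison, and also with voom weights. An unadjusted limma p under 0.05 was held by 1262 and 882 features. Chance alone gives a share of about 0.05, so nothing is read from these 2 counts. With only the compared groups in the model, day 18 against day 12 gave 3 calls, all lower. Among the 10 rises, 4 were called higher on day 6 (0.375% of all features) and 3 on day 18 (0.0574%). SMED30017339 and SMED30019921 were called on both days, SMED30010551 and SMED30021335 on day 6 and SMED30012044 on day 18.

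**Figure D4:**
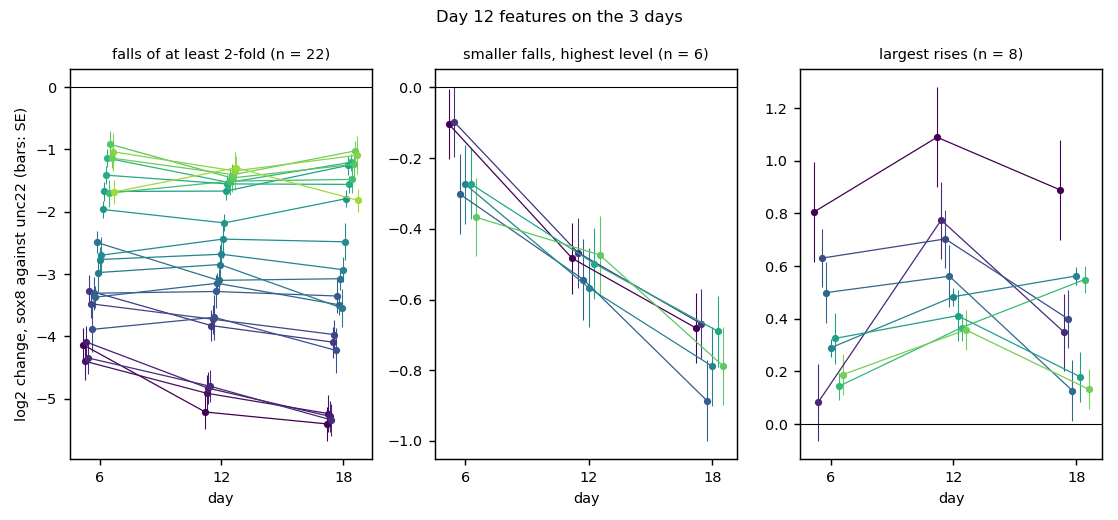
Log2 change in sox8 against unc22 libraries on days 6, 12 and 18 for the 22 falls of at least 2-fold (left), the 6 most abundant smaller falls (middle) and the 8 largest rises (right); bars are limma's SE and the vertical scales differ. Of the 22 falls, 21 were called lower on day 6, the exception being SMED30033320. The 6 smaller falls run from -0.37 to -0.10 on day 6 and from -0.89 to -0.67 on day 18.

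The day 12 level was also compared with zfp1 and pax5 worms of the same day, to show where the sox8 response differs. Changes against unc22 share the 4 control libraries, so they are set side by side only, and differences rest on direct contrasts. sox8 and zfp1 libraries differed in 2981 features (13.2% of those tested; 2012 or 8.88% higher and 969 or 4.27% lower in sox8), and at equal depth in 1478 (1084 higher, 394 lower). sox8 and pax5 libraries differed in 1132 (4.99%; 845 or 3.73% higher and 287 or 1.27% lower). Of the 22 falls of at least 2-fold, 13 differed from zfp1, with 4 lower and 9 higher in sox8, and 16 differed from pax5, with 12 lower and 4 higher. These members were chosen with the same sox8 libraries, so nothing is read from these counts.

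Among the 22, those lower in sox8 than in zfp1 worms were the 4 deepest falls on the log2 scale. The order by depth and this contrast use the same sox8 libraries, so nothing is read from the match. SMED30025741 changed by -5.21 in sox8, -3.84 in zfp1 and -2.04 in pax5 libraries against unc22, and the direct differences were -1.37 from zfp1 (SE 0.27, adjusted p = 0.00032) and -3.17 from pax5 (SE 0.27, adjusted p = 5.10e-12). SMED30002134 and SMED30031990 were also lower in sox8 than in both others, by 0.82 and 0.88 from zfp1 in log2 units. Neither difference was refitted with other settings or with a library left out. The zfp1 libraries of day 12 were uneven, with SMED30025741 at 25.4, 20.8, 34.0 and 61.7 RPKM. The 22 falls together made up 0.0295%, 0.0240%, 0.0362% and 0.0686% of the summed RPKM in these libraries, highest in replicate 4. SMED30008921 was lower than in zfp1 by 1.15 (adjusted p = 0.00576), but this call was lost with voom weights (adjusted p = 0.0878), at equal depth (0.108), in a fit of the 2 groups alone (0.0628) and without zfp1 replicate 4 (0.0504). In pax5 libraries it changed by -5.64, and its sox8 level did not pass the test against them (adjusted p = 0.227). At the other end, SMED30020396 changed by -2.44 in sox8 against -4.79 in zfp1 and -5.90 in pax5, with direct differences of 2.35 and 3.47. SMED30035904 changed by -3.28, -4.90 and -5.88 in the same order, with direct differences of 1.62 (adjusted p = 1.72e-05) and 2.60 (adjusted p = 6.06e-10).

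**Figure D5:**
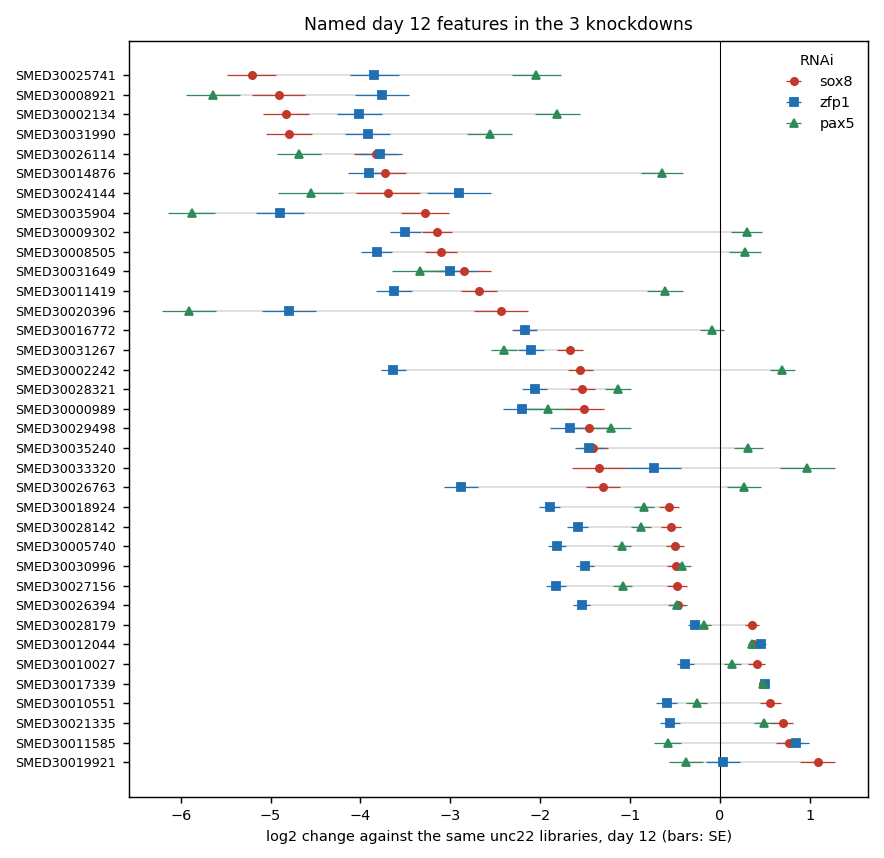
Log2 changes on day 12 of the 36 named features in sox8 (red circles), zfp1 (blue squares) and pax5 (green triangles) libraries against the same 4 unc22 libraries, ordered by the sox8 change; bars are limma's SE. SMED30009302 is low in sox8 and zfp1 but not in pax5, SMED30020396 is lowest in pax5, and SMED30017339 has nearly the same value in all.

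pax5 worms split the 22 falls of day 12. On day 18, in libraries apart from those of day 12, 14 of them were called lower in pax5 (4.98% of all features were), 4 higher (2.48% were) and 4 neither. In zfp1 worms of day 18 all 22 were called lower (14.5% of all features were), and on day 6 it was 9 of 22 (0.631%). The 4 features neither higher nor lower in pax5 were SMED30014876, SMED30009302, SMED30008505 and SMED30026763. On day 12 SMED30009302 differed between sox8 and pax5 libraries by -3.45 (SE 0.17, adjusted p = 2.80e-20) and SMED30008505 by -3.38 (SE 0.18, adjusted p = 1.19e-19). The 4 called higher in pax5 on day 18 were SMED30016772, SMED30002242, SMED30035240 and SMED30033320, with changes from 0.42 upward. SMED30002242 is the clearest of these: on day 12 its controls averaged 20.1 ± 1.02 RPKM and its sox8 libraries 6.57 ± 0.9299 RPKM (SD, n = 4), and it changed by -1.55 in sox8, -3.63 in zfp1 and 0.70 in pax5, and differed by 2.08 from zfp1 and by -2.25 from pax5 (limma adjusted p = 1.60e-15 and 5.48e-17).

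Among the 33 smaller falls, 16 were higher and 6 lower in sox8 than in zfp1 libraries of day 12, where 8.88% and 4.27% of all features were. They too were chosen with these sox8 libraries, so the counts only describe them. The 6 most abundant were all among the 16: their zfp1 changes ran from -1.89 to -1.50 against -0.57 to -0.47 in sox8, with direct differences of 1.01 to 1.35. The 6 lower than in zfp1 libraries were also lower than in pax5 libraries, where 1.27% of all features were. They are named here after their values were seen: SMED30008371, SMED30005617, SMED30006159, SMED30027465, SMED30010682 and SMED30008070. SMED30010682, for example, averaged 60.2 ± 1.99 RPKM in controls against 51.8 ± 3.29 RPKM after sox8 RNAi (SD, n = 4), and changed by -0.22 in sox8, 0.30 in zfp1 and 0.14 in pax5. SMED30008371 changed by -0.31, 0.04 and -0.01, and its direct differences were -0.35 (SE 0.05, adjusted p = 1.91e-07) and -0.31 (SE 0.05, adjusted p = 4.20e-06). On day 18 SMED30008371, SMED30027465 and SMED30010682 were called lower in sox8 worms as well, by 0.22, 0.25 and 0.38 in log2 units. Rises also differed between treatments: SMED30021335 changed by 0.70 in sox8 and 0.50 in pax5 but by -0.55 in zfp1, and SMED30025887, named after its values were seen, by 0.31 in sox8 and zfp1 but by -1.53 in pax5.

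Length and the time course in controls describe the 22 deep falls further. Feature lengths follow from the steps of the RPKM values. The median length of the 22 was 606.5 bases (range 410 to 1588) against 1098 bases over all tested features, and 19 of the 22 were shorter than that. The 33 smaller falls had a median of 814 bases and the 10 rises one of 1878 bases. In controls 8 of the 22 were at or above 100 RPKM, 6 of the 33 and 0 of the 10 rises, against 5.16% of all tested features. These levels come from the control libraries that chose the features, so they only describe them. In control worms many of the 22 also fell with time. From day 6 to day 18, contrasted without the day 12 libraries, 14 of them were called lower in unc22 worms (17% of all features were) and 0 higher (21.3% were; 20 of the 22 had a negative change), with a median change of -0.66. SMED30011419 changed by -1.02, SMED30002134 by -0.97 and SMED30025741 by -0.95 in the controls over these days. The share of the 22 features in summed RPKM of controls was 1.01 ± 0.0434% on day 6, 0.568 ± 0.0217% on day 12 and 0.499 ± 0.0161% on day 18 (SD, n = 4). In sox8 worms the share was 0.0903 ± 0.0187%, 0.0455 ± 0.00369% and 0.0350 ± 0.00331% on the same days.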

How the data were processed

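The authors deposited RPKM values in 1 table of 28413 features by 48 libraries. CASAVA 1.8.2, Bowtie and edgeR are named without role in the submitters' processing notes; the reference, the filters and how multiply aligned reads were handled are not given in the sources used here, so near-identical features are uncertain. Per the labels' protocols, libraries were made with the TruSeq kit from whole worms, although the shared text also mentions sorted cells.

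Whole reads and lengths were recovered from the RPKM steps for all 28413 features (largest deviation 1.86e-09, tolerance 0.0001). Totals ran from 6894458 to 65663283 reads (median 23162610.5). Read numbers cover counting error only. Features just inside the filter average 0.50005 and 0.50006 RPKM, and just outside 0.49998 and 0.49997.

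limma 3.58.1 (R 4.3.3) was fitted to log2(RPKM + 0.5) for 22667 features (79.8%), all 12 groups in 1 model (36 residual degrees of freedom), trend and robust options, two-sided, Benjamini-Hochberg adjusted within each contrast over all tested features. Tables were joined in Python 3.11.15 (pandas 2.3.3, numpy 2.4.6) and plotted with matplotlib 3.10.9. The fit was tested on simulated counts, with the same spread beyond counting error for every feature. That test checks the code and not the spread of the real features. Named features are the 22 falls of at least 2-fold, the 8 largest rises and the 6 most abundant smaller falls (the higher group had to average 1 RPKM), and up to 2 per direction in each direct contrast among the called; a few others are named for their size or pattern after their values were seen. Members, lists and rules were chosen with earlier results of these data known. Marker and pathway lists by gene symbol were not used, since the table has no names. Correlations of deviations between day 12 libraries were 0.00125 to 0.0404 for equal replicate numbers and -0.0629 to 0.0378 for different numbers. The labels do not say that equal numbers mark a shared batch, so no block was used.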

Additional observations from a re-analysis of the deposited data

Results flagged for a closer look

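In 2 of 72 groups of 4 examined (36 named features, sox8 and unc22 on day 12) a library lay far from the other 3. For SMED30002242 unc22 replicate 4 was the lowest control at 18.6 RPKM, against 20.5 to 20.8 RPKM in the others. For SMED30029498 unc22 replicate 2 was the lowest control at 2.20 RPKM, against 3.18 to 3.32 RPKM. Chance flags about 1 in 20 such groups. In both features every sox8 library lay below the lowest control.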

How the results depend on the processing

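The 65 calls of day 12 became 137 when the model held the compared libraries alone (34 rises, 103 falls), 38 with reads thinned to equal depth (7 and 31), and 43 to 59 when 1 of the 8 libraries was left out, the 43 being without unc22 replicate 2. The 22 falls of at least 2-fold were 14 with a pseudocount of 2, which shrinks low features by construction, and 21 to 24 without 1 library. The sox8 against zfp1 count of 2981 was 1478 at equal depth and 2346 to 2900 without 1 library, and the sox8 against pax5 count of 1132 was 976 to 1020 without 1 library. The sox8 effect on day 18 minus that on day 12 gave 3 calls when the model held the compared libraries alone. Both day differences gave 0 to 0 calls without any 1 library. The day 12 falls called lower numbered 20 to 22 on day 6 and 21 to 22 on day 18 without 1 library. The set of falls was drawn anew in each refit, so these counts are not out of a fixed 22. The cause of these shifts was not tested, apart from fewer reads at equal depth. The other alternatives were pseudocount 0.1, no filter, a mean of at least 2 RPKM, quantile normalization, median-of-ratios scaling and voom weights on recovered reads, the last added after seeing the data; each kept these counts within 1.5 times. With the replicate number as a block the day 12 count was 65, also within 1.5 times. Since the labels do not say that equal numbers mark a shared batch, this is only a check. Over 10 alternatives with all libraries, named features kept direction and call in 414 of 431 cases and lost the call in 17, and without 1 library in 308 of 352, with 44 calls lost and 0 directions reversed. The edgeR test on recovered reads was not run. The voom fit took the recovered reads as counts, and the equal-depth fit took them thinned and turned back to RPKM. A floor of 3 reads is 0.179 RPKM at the length of SMED30016772 and 0.367 RPKM at that of SMED30033320, which limits what low features can show.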
